A study of Homo sapiens with 6 samples.

Results

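Genes for histone lysine methyltransferases, histone lysine demethylases and the core subunits of their complexes were followed across 6 Illumina bead arrays of SKOV-3, an established human ovarian carcinoma cell line. The list holds 48 genes chosen by name, and all probes whose only platform symbol was one of them were taken, which gave 77 of 47314 probes for 45 of the 48 genes. One group was transfected with siRNA against HBO1 (siHBO1, 3 arrays) and the other with scramble siRNA (siCtrl, 3 arrays), and RNA of both groups was collected after 48 h. HBO1 is the protein of KAT7, a histone acetyltransferase, and the series asks what it does in this cell line. The sources name neither the siRNA sequences nor how many siRNAs were used. They do not say whether replicates were separate cultures, so p-values reflect only the variation among the 6 samples, and this may be technical.

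Methyl groups on histone lysines are placed by SET domain enzymes and by DOT1L, which has none, and removed by flavin-dependent (KDM1) and Jumonji (other KDM) demethylases. Methylation of lysine 4 of histone H3 (H3K4) marks promoters and enhancers, methylation of H3K36 and H3K79 marks transcribed genes, and methylation of H3K9, H3K27 and H4K20 is linked to silent chromatin. HBO1 complexes contain ING proteins, whose PHD fingers bind methylated H3K4, so the acetylation and methylation systems meet at the same nucleosomes.

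The labels name the cell line, and its identity was not tested beyond marker detection, which cannot tell it from other carcinoma lines. Of 12 fixed markers of SKOV-3 and ovarian carcinoma, 11 were detected on all 6 arrays, ERBB2 and PAX8 among them, and the exception was MUC16. Of 8 leukocyte markers 2 (CD14 and CD68), of 7 fibroblast markers 2 (COL1A1 and COL1A2) and of 4 endothelial markers 0 were detected on all 6, with PTPRC, CD3E, TYROBP, THY1, PECAM1, VWF, CDH5 and KDR detected on no array. A detection p under 0.05 was reached by 42.2% to 44.3% of an array's probes. KAT7, the targeted gene, had log2 values of 4.77, 5.22 and 5.45 on siHBO1 arrays 1 to 3, against 5.93, 6.49 and 6.45 on siCtrl arrays 1 to 3. The groups did not overlap, with a log2 change of -1.14 (SE 0.25) and an adjusted p of 0.999 in limma. The exact permutation test gave p = 0.1 (two-sided), the smallest that 3 arrays against 3 allow. Its probe was dim, detected on 1 of 3 siHBO1 and 3 of 3 siCtrl arrays, and without background correction the log2 change was -0.36.

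A member was tested where 3 or more of the 6 arrays detected one of its probes (detection p under 0.05), and its brightest such probe was used. This held for 41 of the 48 genes. EHMT1, KMT2D, SETD7 and KDM6B had probes but none detected on 3 arrays, and ASH1L, SETD5 and KDM5A had no probe with a single listed symbol and were not analysed here. Of the 41 tested genes, 37 were detected on all 6 arrays, and the other 4 (DOT1L, KDM1B, KDM4C and KDM7A) were close to background. All values below are log2 of background-corrected, quantile-normalized signals, and a change is the siHBO1 mean minus the siCtrl mean.

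None of the 41 genes passed the test. In limma, 0 of 41 had a Benjamini-Hochberg adjusted p under 0.05, as did 0% of the 16692 rows tested, and the smallest adjusted p among the members was 0.999. Unadjusted p was under 0.05 for 2 members, against a background of 3.82% of all rows: KMT2B lay above siCtrl (background 1.8%) and KDM1B below (background 2.02%). All siHBO1 arrays lay on one side of all siCtrl arrays for 4 members, against a background of 10.1%: KMT2B, SETDB1 and KDM4C lay above (background 5.48%) and KDM1B below (background 4.58%). Both shares of members lie near those backgrounds. KDM1B was detected on 1 of 3 siHBO1 and 3 of 3 siCtrl arrays, and KDM4C on 3 of 3 siHBO1 and 2 of 3 siCtrl arrays. Each reached the 3 arrays of the filter only through the group where it was higher, so its separation is not independent of the filter. The median change was 0.02 over the 41 members and 0.00 over all rows, with 23 positive and 18 negative values. As a bound on size, the 95% interval lay within 2-fold either way for 40 of 41 members, KDM1B being the exception, and within 1.5-fold for 20 of 41, against 92.6% and 46.5% of all rows. The count of 2 was 6 without siHBO1 2 (EED, SETDB2, SETDB1 and SETD1A added), while that of all rows was then 1499.

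**Figure D1:**
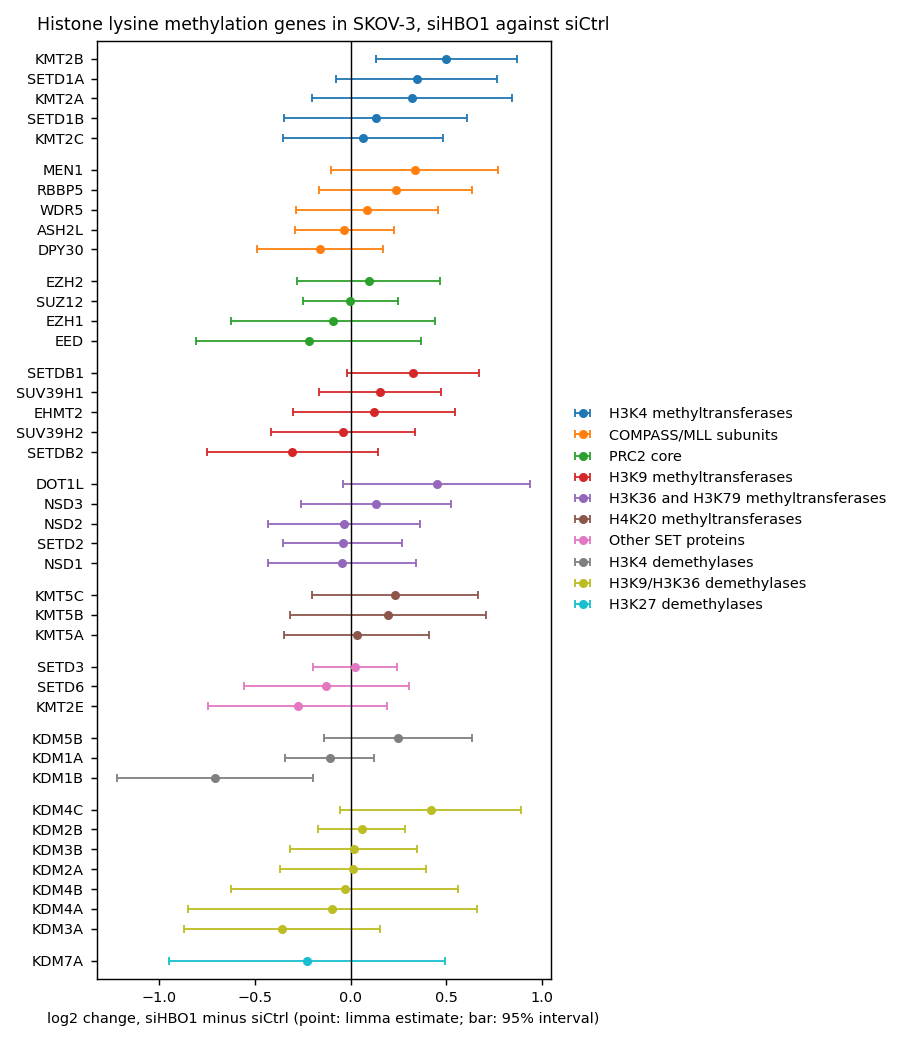
Log2 change (siHBO1 minus siCtrl, x axis) of each of the 41 tested genes with its 95% interval from limma, grouped and coloured by role. Intervals exclude 0 for KMT2B (0.50) and KDM1B (-0.71), and no gene passed after adjustment over all rows.

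The H3K4 methyltransferases are the catalytic subunits of the COMPASS and MLL complexes (KMT2A, KMT2B, KMT2C, KMT2D, SETD1A and SETD1B) and the separate enzyme SETD7. All 5 tested genes had positive changes, with a median of 0.32, and 0 passed the test; 4 of 5 were positive without siCtrl 1 and with array weights. KMT2B, which deposits H3K4 methylation at promoters in a complex with menin, had values of 8.5, 8.49 and 8.31 on siHBO1 arrays 1 to 3, against 8.04, 7.95 and 7.82 on siCtrl arrays 1 to 3. Every siHBO1 array stood above every siCtrl array. The difference was 0.50 (SE 0.16, 95% interval 0.13 to 0.87), or 1.41-fold, with an unadjusted p of 0.0135 and an adjusted p of 0.999 in limma. Uncorrected intensities also separated the groups, at 443, 433 and 491 on siHBO1 against 410, 403 and 340 on siCtrl arrays. The unadjusted p was 0.0587 without siCtrl 3.

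SETD1A, a main source of H3K4 trimethylation at active promoters, had 9.13, 8.66 and 8.87 on siHBO1 arrays, against 8.69, 8.58 and 8.36 on siCtrl arrays. The groups overlapped, since siHBO1 2 lay below siCtrl 1, and the difference was 0.34 (SE 0.18). KMT2A, the paralog of KMT2B, differed by 0.32 (SE 0.23). That value rested on siCtrl 1, which read 6.48 against 7.23 and 7.02 on the other siCtrl arrays, and came to 0.11 without it. SETD1B differed by 0.13 and KMT2C, which methylates H3K4 at enhancers, by 0.07. The median deviation of these 5 genes from their own means over the arrays was 0.32, 0.14 and 0.13 on siHBO1 1 to 3 and -0.15, 0.08 and -0.11 on siCtrl 1 to 3. This group was singled out after its values were seen, so the pattern is a description. Its median was 0.11 without siCtrl 1, 0.16 without background correction, 0.26 with median scaling and 0.17 over all 7 kept probes of these genes, of which 6 were positive. KMT2D and SETD7 were not detected on enough arrays to be tested.

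The printed windows are the promoters of KMT2B and KDM1B, the members with the smallest p in each direction. Sequences are RefSeq's on GRCh38.p14, from 250 bases before to 50 after the gene's start, on the plus strand, and capitals mark the GC box GGGCGG on either strand (also written CCGCCC). KMT2B lies at chr19:35717753-35718052 and KDM1B at chr6:18155172-18155471.
KMT2B: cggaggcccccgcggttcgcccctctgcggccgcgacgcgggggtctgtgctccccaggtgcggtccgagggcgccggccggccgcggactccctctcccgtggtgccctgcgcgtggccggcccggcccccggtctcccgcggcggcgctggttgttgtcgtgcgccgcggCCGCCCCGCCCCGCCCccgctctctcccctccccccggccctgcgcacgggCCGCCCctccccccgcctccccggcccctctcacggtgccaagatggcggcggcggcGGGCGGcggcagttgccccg
KDM1B: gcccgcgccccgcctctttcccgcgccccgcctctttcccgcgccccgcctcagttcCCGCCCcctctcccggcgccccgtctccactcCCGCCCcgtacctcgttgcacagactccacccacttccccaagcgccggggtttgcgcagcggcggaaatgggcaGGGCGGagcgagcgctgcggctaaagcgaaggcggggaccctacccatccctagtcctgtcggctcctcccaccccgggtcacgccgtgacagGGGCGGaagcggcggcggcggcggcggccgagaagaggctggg
The KMT2B window holds 5 matches to the GC box, some overlapping, and 48 CpG dinucleotides, and the KDM1B window 4 matches and 39 CpG. SETDB1 and KDM4C were the other members whose groups did not overlap. Their windows, for SETDB1 the first of 2 by position, hold 0 matches each, with 15 and 29 CpG. Windows of this length were found for 43 of the 48 genes, 63 windows in all because some genes have several starts. GGGCGG was present on either strand in 77.8% of the 63, against 45% of the 35116 windows of all genes in the same table. CCAAT was present on either strand in 38.1% against 34.6%, and TATAAA in 0 of 63 against 11.5%. The observed over expected CpG ratio exceeded 0.6 in 88.9% of member windows and in 48.9% of all. The windows of all genes cover 27305 genes and were not limited to genes detected on these arrays. Members were not compared with other detected genes, so these shares cannot be read as particular to the members. Windows were not split by the direction of a gene's change, and a match is a description and not a bound site.

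The shared subunits WDR5, ASH2L, RBBP5 and DPY30 form the core on which every COMPASS-type enzyme acts, and menin (MEN1) links KMT2A and KMT2B to chromatin. Of these 5 genes 3 had positive and 2 negative changes (median 0.09), and 0 passed the test. MEN1 had 7.76, 7.81 and 7.96 on siHBO1 arrays, against 7.29, 7.81 and 7.43 on siCtrl arrays. The groups overlapped because siCtrl 2 was as high as the siHBO1 arrays, and the difference was 0.33 (SE 0.19). Other kept probes of MEN1 gave 0.27 and -0.19, the last from a probe detected on 1 of 3 siHBO1 and 2 of 3 siCtrl arrays. RBBP5 had 8.45, 8.71 and 8.24 on siHBO1 arrays, against 8.20, 8.23 and 8.26 on siCtrl arrays, a difference of 0.24 (SE 0.18). The siCtrl arrays were tightly grouped and siHBO1 3 lay within their range. WDR5 (0.09, other probe 0.09), ASH2L (-0.03) and DPY30 (-0.16, other probe -0.16) overlapped as well, and the interval of ASH2L was -0.29 to 0.23.

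Polycomb repressive complex PRC2 methylates H3K27 through EZH2 or EZH1, with EED as the reader of the mark and SUZ12 as the scaffold. Of its 4 core genes 1 had a positive and 3 a negative change (median -0.05), and 0 passed. EED had 8.5, 9.57 and 8.82 on siHBO1 arrays, against 9.18, 9.11 and 9.25 on siCtrl arrays. Its siHBO1 arrays spanned both sides of the siCtrl arrays. The difference was -0.22 (SE 0.26), -0.52 without siHBO1 2 and 0.01 without siHBO1 1. EZH2 had 8.58, 8.31 and 8.60 on siHBO1 arrays, against 8.37, 8.5 and 8.34 on siCtrl arrays. These overlapped, with a difference of 0.09 (SE 0.16), and other kept EZH2 probes gave 0.26 and -0.19. SUZ12 differed by 0.00 with a narrow interval (-0.25 to 0.25), and EZH1 differed by -0.09 (SE 0.23).

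H3K9 methylation is placed by SETDB1, which silences retroelements together with TRIM28, by its relative SETDB2, by SUV39H1 and SUV39H2 in constitutive heterochromatin, and by EHMT1 and EHMT2 elsewhere. Of 5 tested genes 3 were positive and 2 negative (median 0.12), and 0 passed. SETDB1 had 8.98, 8.81 and 9.02 on siHBO1 arrays, against 8.61, 8.63 and 8.59 on siCtrl arrays. The groups did not overlap, and the siCtrl arrays lay close to each other. The difference was 0.32 (SE 0.15, 95% interval -0.02 to 0.67), with an unadjusted p of 0.0614 in limma. SETDB2 had 8.71, 9.23 and 8.72 on siHBO1 arrays, against 9.0, 9.34 and 9.24 on siCtrl arrays. The overlap came from siHBO1 2, which was as high as siCtrl arrays, and the difference was -0.31 (SE 0.20). SUV39H1 (0.15, SE 0.14), EHMT2 (0.12, SE 0.19) and SUV39H2 (-0.04, SE 0.17) overlapped too.

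Among enzymes acting in transcribed genes, SETD2 trimethylates H3K36, NSD1, NSD2 and NSD3 place its dimethyl form, and DOT1L methylates H3K79. Of these 5 genes 2 were positive and 3 negative (median -0.03), and 0 passed. DOT1L had 5.46, 5.56 and 5.69 on siHBO1 arrays, against 4.84, 5.06 and 5.46 on siCtrl arrays. It was above background on 3 of 3 siHBO1 and 1 of 3 siCtrl arrays, and siCtrl 3 reached the lowest siHBO1 array. The difference was 0.45 (SE 0.21), and 0.13 without background correction. NSD3 had 8.02, 7.90 and 7.90 on siHBO1 arrays, against 8.02, 7.75 and 7.65 on siCtrl arrays, a difference of 0.13 (SE 0.17). These overlapped, and other NSD3 probes gave 0.11 and 0.06. SETD2 (-0.04), NSD1 (-0.04) and NSD2 (-0.03) lay close to 0, each with an SE of 0.14 to 0.17.

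H4K20 is monomethylated by KMT5A and further methylated by KMT5B and KMT5C. All 3 had positive changes (median 0.20), and 0 passed. KMT5C had 5.99, 6.0 and 5.65 on siHBO1 arrays, against 5.79, 5.59 and 5.57 on siCtrl arrays, a difference of 0.23 (SE 0.19). siHBO1 3 lay within the siCtrl range. KMT5B had 9.69, 8.95 and 9.19 on siHBO1 arrays, against 9.31, 8.82 and 9.13 on siCtrl arrays, a difference of 0.20 (SE 0.23). That value rested on siHBO1 1 and was -0.01 without it, and other KMT5B probes gave 0.03 and -0.21. KMT5A differed by 0.03 (SE 0.17).

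The remaining SET proteins act mainly elsewhere: SETD3 methylates a histidine of actin, SETD6 methylates the NF-kB subunit RELA, and KMT2E binds methylated H3K4 through its PHD finger. Of these 3 genes 1 was positive and 2 negative (median -0.13), and 0 passed. KMT2E had 6.69, 6.26 and 6.80 on siHBO1 arrays, against 6.67, 6.92 and 6.99 on siCtrl arrays, a difference of -0.28 (SE 0.21). The groups overlapped at siCtrl 1, and another kept KMT2E probe gave 0.03. SETD6 had 8.41, 8.97 and 8.66 on siHBO1 arrays, against 8.66, 8.94 and 8.83 on siCtrl arrays, a difference of -0.13 (SE 0.19), which was 0.01 without siHBO1 1. SETD3, at 0.02, had one of the narrowest intervals (-0.20 to 0.24).

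H3K4 demethylases are KDM1A and KDM1B, flavin-dependent oxidases that remove mono- and dimethyl groups, and the Jumonji enzymes KDM5A and KDM5B. Of the 3 tested genes 1 was positive and 2 negative (median -0.11), and 0 passed. KDM1B, which acts on H3K4 within gene bodies, had 4.84, 5.03 and 5.31 on siHBO1 arrays, against 6.07, 5.76 and 5.49 on siCtrl arrays. Every siHBO1 array lay below every siCtrl array. The difference was -0.71 (SE 0.22, 95% interval -1.22 to -0.20), or 1.63-fold lower with this background correction, and 1.37% of all rows differed by over 1.5-fold in either direction. Its unadjusted p was 0.012 and its adjusted p 0.999 in limma.

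The KDM1B value carried the same limit as that of KAT7. Its only probe was detected on 1 of 3 siHBO1 and 3 of 3 siCtrl arrays, with uncorrected intensities of 146, 149 and 177 on siHBO1 against 197, 188 and 168 on siCtrl arrays. On that uncorrected scale, before normalization between arrays, siHBO1 3 lay above siCtrl 3. The log2 change of KDM1B was -0.40 in the authors' processed values, likewise -0.40 when the offset was set to 50, and -0.21 with uncorrected background. In size these were under 1.5-fold and below those of KMT2B, which were 0.45, 0.45 and 0.35. The unadjusted p of KDM1B was 0.0513 without siCtrl 1. KDM5B had 9.95, 9.75 and 10.27 on siHBO1 arrays, against 9.63, 9.82 and 9.77 on siCtrl arrays, a difference of 0.25 (SE 0.17). Here siHBO1 2 lay inside the siCtrl range. KDM1A, the catalytic subunit of the CoREST complex, differed by -0.11 (SE 0.10, 95% interval -0.34 to 0.12).

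**Figure D2:**
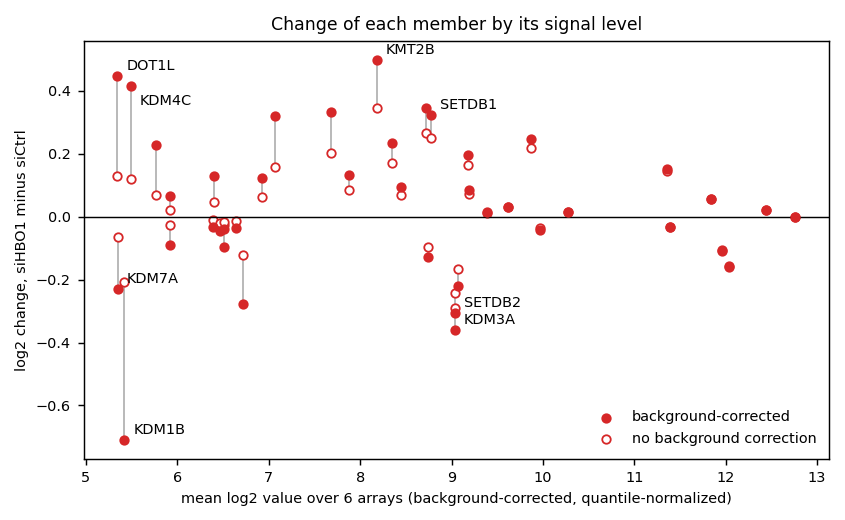
Log2 change (siHBO1 minus siCtrl, y axis) of the 41 tested genes against their mean log2 value over the 6 arrays (x axis), with background correction (filled) and without (open), joined by a grey line per gene. KDM1B moves between -0.71 and -0.21 and DOT1L between 0.45 and 0.13, while genes with a mean above 10 barely move.

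Demethylases of H3K9 and H3K36 comprise the KDM2, KDM3 and KDM4 enzymes. Of 7 genes 4 were positive and 3 negative (median 0.01), and 0 passed. KDM4C, which removes trimethyl groups from H3K9 and H3K36, had 6.02, 5.59 and 5.49 on siHBO1 arrays, against 5.16, 5.27 and 5.42 on siCtrl arrays. The groups did not overlap after normalization, although in uncorrected intensity siHBO1 2 (163) lay below siCtrl 2 (170). The difference was 0.42 (SE 0.21), and 0.12 without background correction and 0.26 without siHBO1 1. KDM3A, an H3K9 demethylase induced by hypoxia, had 8.97, 9.06 and 8.54 on siHBO1 arrays, against 9.62, 9.07 and 8.97 on siCtrl arrays. These overlapped, and the difference of -0.36 (SE 0.23) was -0.16 without siCtrl 1. KDM2B (0.06), KDM2A (0.01), KDM3B (0.02), KDM4A (-0.09) and KDM4B (-0.03) lay within 0.10 of 0. KDM2B had other probes at 0.02 and -0.32, the last detected on 1 of 3 siHBO1 and 3 of 3 siCtrl arrays.

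For H3K27, KDM7A removes dimethyl and KDM6B di- and trimethyl groups. KDM7A was detected on 1 of 3 siHBO1 and 2 of 3 siCtrl arrays. Its values were 5.72, 5.12 and 4.86 on siHBO1 arrays, against 5.7, 4.86 and 5.82 on siCtrl arrays, a difference of -0.23 (SE 0.32). Arrays of the same group differed by more than the groups did. KDM6A, the paralog of KDM6B, is not a member and is counted below with the COMPASS and partner subunits. It was detected on 3 of 3 arrays of each group and differed by 0.07 (SE 0.16).

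**Figure D3:**
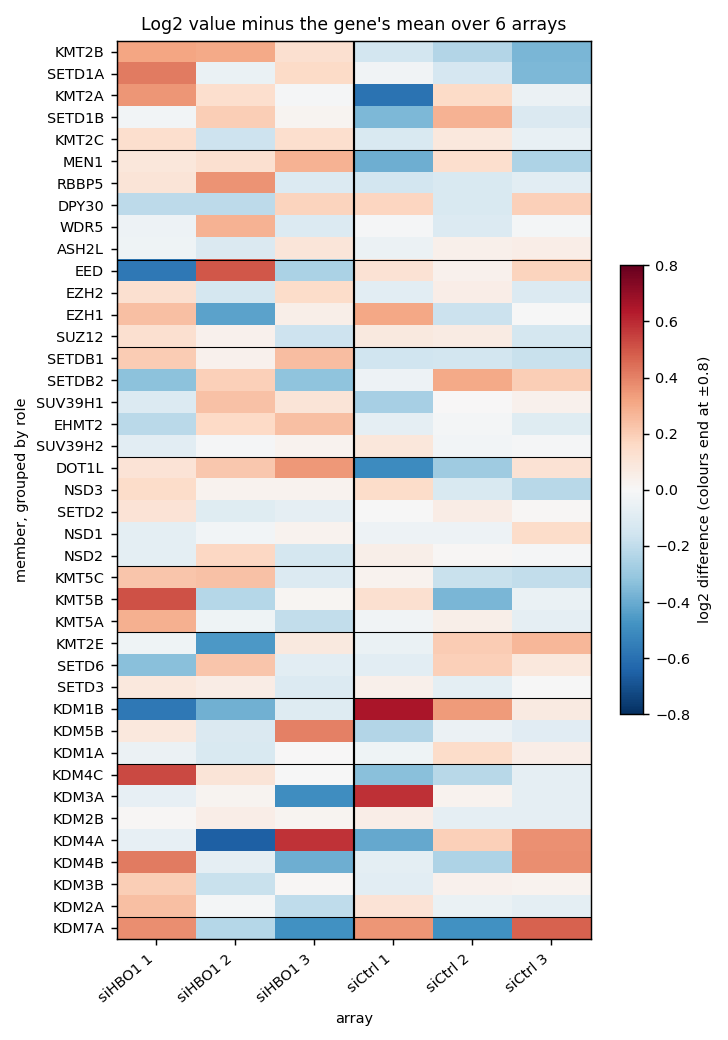
Each tested gene's log2 value minus its mean over the 6 arrays (colour, red above and blue below), with siHBO1 arrays left and siCtrl arrays right of the black line and roles separated by horizontal lines. KMT2B, SETDB1, KDM4C and KDM1B separate by group, while KDM4A, KDM7A and EED vary most between arrays of the same group.

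The pooled within-group SD had a median of 0.17 over the 41 genes, against 0.23 over all rows. Rows were not matched to the members for signal level. Of the members 37 of 41 were detected on all 6 arrays, and of all rows 14068 of 16692. The lower SD can therefore not be read as a trait of the members. The lists of further pathway genes given below had medians from 0.13 (COMPASS and partner subunits) to 0.25 (other demethylases). Among the 41 genes this SD was smallest for KDM2B (0.05), SUV39H2 (0.06) and KDM1A (0.08) and largest for KDM4A (0.52), KDM7A (0.48), EED (0.39) and KDM4B (0.37). KDM4A, which removes trimethyl groups from H3K9 and H3K36, had 6.45, 5.86 and 7.09 on siHBO1 arrays, against 6.11, 6.70 and 6.88 on siCtrl arrays, so that both its highest and its lowest value came from siHBO1 arrays. The highest array was siHBO1 1 for 13 genes, siHBO1 3 for 8 and siHBO1 2 for 7, and a siCtrl array for the others. The lowest array was siHBO1 1 for 8 genes, siHBO1 2 for 9 and siHBO1 3 for 7, so siHBO1 arrays held most of both extremes. The median deviation of all 41 members was 0.09, 0.02 and 0.01 on siHBO1 1 to 3 and -0.04, -0.01 and -0.01 on siCtrl 1 to 3.

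Separate probes of one gene often disagreed in sign at this effect size. Of 12 members with more than 1 kept probe, 8 had probes of both signs. DPY30, NSD2, NSD3 and WDR5 were the 4 with a single sign. NSD2 gave -0.03 and, by another probe, -0.24. The probes can read different transcripts of a gene, and their target sequences were not used here.

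**Figure D4:**
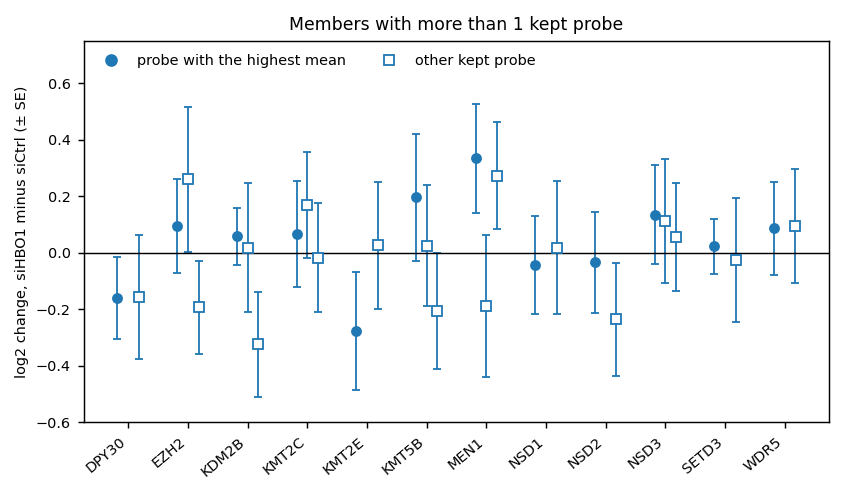
Log2 change (siHBO1 minus siCtrl, y axis) of every kept probe of the 12 members with more than 1, with filled circles for the brightest probe, open squares for others and bars of ± 1 SE from limma. Probes fall on both sides of 0 for 8 genes, with MEN1 ranging between 0.33 and -0.19.

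Further genes of the pathway came from fixed lists, and 0 passed the test in either direction. Accessory PRC2 subunits had a median of -0.15 over 7 genes, with MTF2 at -0.28 (SE 0.22) and RBBP4 at -0.19 (SE 0.15, other probes 0.19 and -0.71). By its brightest probe, RBBP4 lay lower on all siHBO1 than on all siCtrl arrays (1 of 7 genes, background 4.58%). COMPASS and partner subunits had a median of 0.03 over 11 genes. TRIM28, the corepressor that recruits SETDB1, had 9.71, 9.59 and 9.34 on siHBO1 arrays, against 9.26, 9.26 and 9.06 on siCtrl arrays, which did not overlap, with a difference of 0.36 (SE 0.16). RCOR3, of the CoREST family that binds KDM1A, differed by -0.28 (SE 0.15), with all siHBO1 arrays below all siCtrl arrays. In this list 2 of 11 genes lay fully above siCtrl and 1 fully below, against backgrounds of 5.48% and 4.58% of all rows. Other methyltransferases had a median of -0.03 over 12 genes, with PRDM8 at 0.18 (SE 0.19) and MECOM at -0.16 (SE 0.20, other probe 0.18). Readers of methylated lysine had a median of -0.08 over 15 genes, with L3MBTL2 at 0.27 (SE 0.17, other probe 0.20) and CBX5 at 0.25 (SE 0.20).

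Other demethylases had a median of 0.02 over 10 genes, of which 2 had an unadjusted p under 0.05, both above siCtrl (background 1.8%). KDM5C, an H3K4 demethylase, had 6.26, 6.10 and 6.56 on siHBO1 arrays, against 5.74, 5.76 and 5.11 on siCtrl arrays. The groups did not overlap, with a difference of 0.77 (SE 0.24), and 0.25 without background correction. Its probe was detected on 3 of 3 siHBO1 and 2 of 3 siCtrl arrays. In this list 3 of 10 genes lay fully above siCtrl and 0 fully below, against backgrounds of 5.48% and 4.58% of all rows. KDM8, a Jumonji protein, differed by 0.56 (SE 0.21), and 0.16 without that correction, its probe being detected on 3 of 3 siHBO1 and 1 of 3 siCtrl arrays. KDM5C and KDM8 each reached the 3 arrays of the filter only through the group where they were higher. Their p-values and separation are therefore not independent of the filter, and the 2 cannot be read as an excess over the background. Arginine methyltransferases, which modify the same histone tails, had a median of -0.03 over 8 genes, of which 1 had an unadjusted p under 0.05, below siCtrl (background 2.02%). PRMT6, which methylates arginine 2 of H3 and so opposes H3K4 methylation, had 10.08, 10.02 and 10.40 on siHBO1 arrays, against 10.88, 10.83 and 10.80 on siCtrl arrays. All siHBO1 arrays lay below all siCtrl arrays, with a difference of -0.67 (SE 0.14), an unadjusted p of 0.00128 and an adjusted p of 0.999 in limma. It was detected on all 6 arrays, gave -0.62 without background correction, and had other probes at -0.66 and -0.23. PRMT7 differed by 0.36 (SE 0.18), with all siHBO1 arrays above all siCtrl arrays. Of the 8 arginine methyltransferases, 2 lay fully above siCtrl and 1 fully below, against backgrounds of 5.48% and 4.58% of all rows.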

How the data were processed

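Total RNA of 6 SKOV-3 samples was hybridised to Illumina bead arrays, and 3 siHBO1 samples were compared with 3 siCtrl samples. The deposited intensity of each probe is a linear mean bead signal, per the file headers, with no visible background subtraction or scaling. The deposited detection p-value counts each probe against the array's negative controls, per the file headers. The authors' processed table is on a log2 scale with one distribution for all arrays, judged from its values. The submitters' processing notes list GenomeStudio and lumi without versions or roles. For arrays, their number limits the precision.

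Intensities were processed with neqc of limma 3.58.1 in R 4.3.3 (statmod 1.5.0), offset 16. Probes detected at p under 0.05 on at least 3 of 6 arrays were kept (20744), and the brightest was used per gene, giving 16692 rows. The siHBO1 and siCtrl groups were fitted by lmFit with trended eBayes, two-sided, with Benjamini-Hochberg adjustment over all rows and a threshold of 0.05. Gene symbols are those of the platform annotation, and probes with several symbols or none were left unnamed. The scripts were tested on simulated data. Members, lists and tests were chosen with earlier results of these data known. All members are named; values per array are given for each member with an unadjusted p under 0.05 and for those with the 2 smallest p of each role. From each further list the genes with the 2 smallest p are named, and KDM6A is given beside KDM6B. The values of KMT2A and KDM4A were described for patterns seen in the data. The 17 alternatives of the closing section changed 1 step each. For the values these were no background correction, an offset of 50, the authors' processed values and median scaling. Probe choices were no filter on dim probes, detection on all 6 arrays, detection p under 0.01 and every kept probe. Fits were run without intensity trend, with array weights, with a replicate block and with each of the 6 arrays left out.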

Additional observations from a re-analysis of the deposited data

How the results depend on the processing

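None of the 41 members was called under any of 17 alternatives, with the smallest adjusted p of a member per fit from 0.451 to 1.00 (limma). Over all rows, 4 were called lower with array weights and 4 with the replicate block, RNF141, CHORDC1, RABL2B and ILMN_3274914 in each, and 0 in the other 15. The median change of the members was -0.044 with median scaling, which put the median of all rows at -0.05, and 0.064 with array weights. It ranged from -0.0043 to 0.061 with an array left out. The change of KAT7 was negative in each of 16 alternatives (-1.35 to -0.36; -1.32 to -0.96 where 1 array was left out), and detection on all 6 arrays removed its probe. Of 350 values of the 21 members given per array, 344 had the reported sign. The 6 exceptions were KDM7A at 0.074 with array weights, EED at 0.011, KMT5B at -0.0092 and SETD6 at 0.0064 without siHBO1 1, and KDM4A at 0.21 without siHBO1 2 and 0.064 without siCtrl 3. With 1 array left out, EED ranged from -0.52 to 0.011, KMT5B from -0.0092 to 0.36, SETD6 from -0.27 to 0.0064 and KDM4A from -0.41 to 0.21. Members at an unadjusted p under 0.05 numbered 6 with array weights, where 1261 rows had one, and between 1 and 6 with an array left out (1 without siCtrl 1, 6 without siHBO1 2), where rows numbered 297 to 1499. Without an intensity trend they were 4, with 733 of 16692 rows. With detection on all 6 arrays or at p under 0.01 they were 1, since those filters removed KDM1B, with 564 of 14075 and 574 of 14378 rows. The labels do not say whether arrays that share a replicate number are pairs, and the main fit did not pair them. Deviations of arrays that share a number had correlations of 0.57, 0.02 and 0.48 for numbers 1 to 3. Arrays of unlike number in the 2 groups had -0.57 to 0.31, so the values for numbers 1 and 3 lay above that range. Of the 6 arrays, 4 deviated most like the array of their own number. With the replicate block 1187 rows and 2 members had an unadjusted p under 0.05 (limma), against 638 rows and 2 members in the main fit. A slide block could not be run because the files name no slides. Dim signal limits KDM1B, DOT1L, KDM4C and KDM7A, and the cause of the other shifts was not tested.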
